A study of Rattus norvegicus with 12 samples.

Results

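Enriched and isolated housing were compared in the hippocampus of young rats that had all received KA, with RNA measured on 6 of the 12 arrays of the study. KA is not spelled out in the sample descriptions and was read as kainic acid, which activates glutamate receptors and provokes seizures, because the study concerned seizure-induced injury of neurons. The comparison was made of the 3 samples described as KA-treated and enriched (KA_enriched) and the 3 described as KA-treated and isolated (KA_isolated), chosen by their descriptions alone and not by any measured value. Both groups were treated at postnatal day 20. The isolated rats lived singly in cages of their own for 10 days, and the KA_isolated descriptions do not say when those days fell. The enriched rats lived 8 to a large cage, for a time that their descriptions do not state. The remaining 6 samples, 3 PBS-treated and isolated (PBS_isolated) and 3 PBS-treated and enriched (PBS_enriched), received phosphate-buffered saline in place of KA and had the same 2 housings. Every sample was a pool of hippocampi from 3 to 4 rats. Strain, sex and litter are not given in the descriptions used here, so n counts pools, p-values reflect variation among pools, and the influence of 1 shared cage cannot be told apart from one of housing. No group lived in ordinary group housing, so enrichment and isolation cannot be told apart either: every difference below is enriched minus isolated.

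Neurons that fire strongly switch on immediate early genes within minutes, through calcium entry, kinases and pre-made transcription factors such as CREB and SRF. Some of these genes encode transcription factors (Egr1, Junb, the Nr4a receptors), others act directly at synapses (Arc, Homer1) or shut the signal down again (Dusp1). Complex housing is known to keep the level of several of them high in the hippocampus. Kainic acid seizures also set off a slower response of the glia, in which microglia take up debris, make complement and present antigen through MHC class II, and astrocytes enlarge and make more of the filament protein GFAP.

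The arrays were alike in overall level, with medians between 70.1 and 74.1, and pairs of arrays within the KA groups correlated between 0.9808 and 0.9894 on the log2 scale. Pairs of 1 KA_enriched and 1 KA_isolated array correlated between 0.9828 and 0.989, inside that range. One array stood apart. In a principal component analysis the leading component (19.2% of the variance) placed KA_enriched pool 3 at 19.05, against -7.07 to 0.60 for the other 5 KA arrays, and it had the highest ratio of 3 prime to 5 prime signal for beta-actin (log2 0.86, against 0.36 to 0.64), a sign of RNA that is less whole. Values without this pool are given beside a part of the results, and the plot of list medians shows every list's median without it. The genes set to check for hippocampal neurons, Prox1, Neurod2, Camk2a, Wfs1, Hpca, Nrgn and Slc17a7, ranked between the 76.3rd and 99.4th percentile of all probe sets. Neurod6, also set for this check, had no probe set with its symbol alone. Markers of tissue next to the hippocampus were present as well: of the choroid plexus and meninges, Ttr ranked at the 67.7th, Dcn at the 67.5th, Aqp1 at the 56.8th and Folr1 at the 53.1st percentile, with Kl at the 4.8th, and Slc17a6, of thalamic neurons, ranked at the 66.3rd.

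Between KA_enriched and KA_isolated, 0 of 9520 probe sets passed at an adjusted p of 0.05 (0%; limma with Benjamini-Hochberg adjustment, lowest adjusted p = 0.234). At an unadjusted p under 0.05 there were 668, or 7.02%, of which 388 were higher and 280 lower in enriched rats. After PBS the same comparison of housings had 401, or 4.21%. Counted once per gene, 253 of 6923 genes were higher (3.65%) and 201 lower (2.9%) at that unadjusted level. The 3 enriched pools lay above all 3 isolated pools for 418 genes (6.04%) and below them for 330 (4.77%). The differences were small: 90% of probe sets lay between -0.21 and 0.22 on the log2 scale, and 44 probe sets differed by more than 0.5 in either direction. Because no gene passed the adjusted test, the genes below are described as higher or lower in these pools, with their unadjusted p, and none is called changed. Signals are linear probe set intensities, printed in the order of pools 1, 2 and 3 with the isolated group before the enriched one, and log2 differences were taken on log2(signal + 17), which understates the difference of dim genes.

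**Figure D1:**
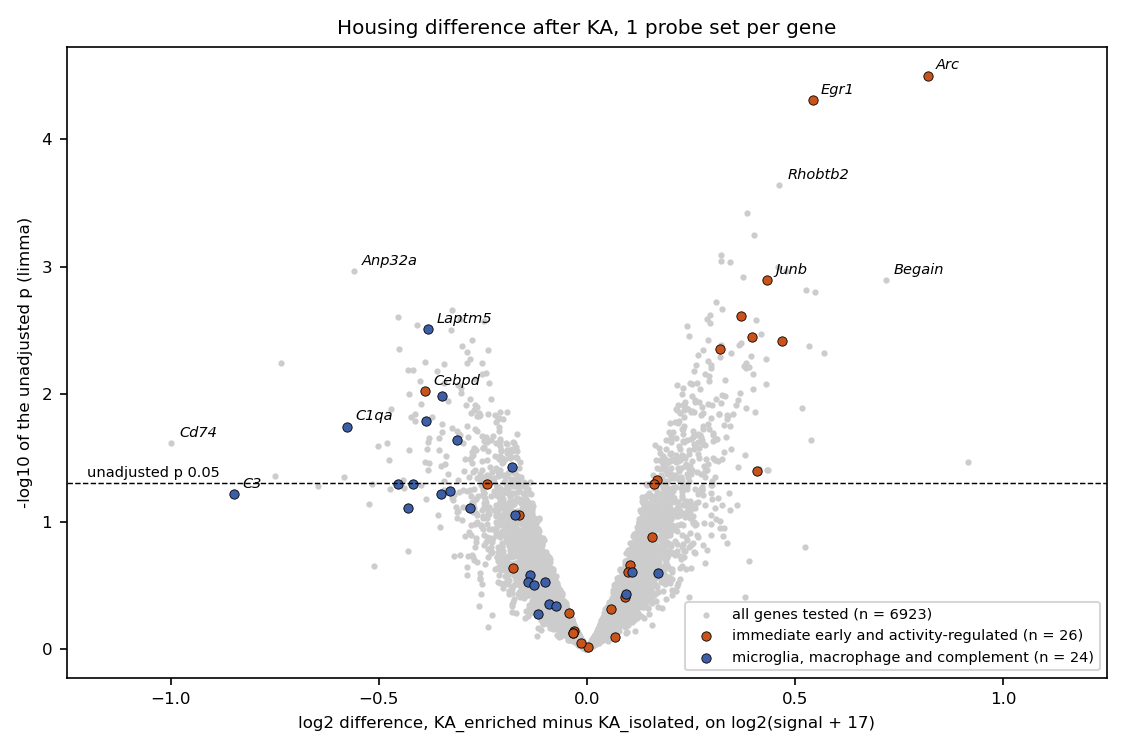
Log2 difference between KA_enriched and KA_isolated (horizontal) against -log10 of the unadjusted limma p (vertical) for 6923 genes, 1 point per gene, with immediate early genes in orange and microglial genes in blue. Arc and Egr1 have the smallest p, and 21 of the 24 microglial genes lie left of 0.

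Activity-regulated genes gave the 2 smallest p-values of the whole comparison. Arc, which encodes a synaptic protein that removes AMPA receptors and is translated near active synapses, was 1.76-fold higher in enriched rats, and Egr1, a zinc finger transcription factor used as a marker of neuronal activity, was 1.46-fold higher. The promoters of the 4 genes of this list with the smallest p that have an entry in the RefSeq promoter table (build GRCr8) are shown because activity reaches such genes through short motifs before the start. Each run is the 250 bases before the transcription start on the gene's own strand. Capitals mark the CRE core (TGACG, or CGTCA on the other strand), the shared part of CREB sites, the CArG box bound by SRF, and the EGR site (GCGGGGGCG, on either strand), to which EGR1 itself binds.
Egr1 (chr18:26736828-26737077, plus strand): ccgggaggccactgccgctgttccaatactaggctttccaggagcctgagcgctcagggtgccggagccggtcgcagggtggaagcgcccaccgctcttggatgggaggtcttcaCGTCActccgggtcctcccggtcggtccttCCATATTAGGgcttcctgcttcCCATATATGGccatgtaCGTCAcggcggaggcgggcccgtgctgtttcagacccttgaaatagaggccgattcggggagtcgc
Junb (chr19:40080876-40081125, plus strand): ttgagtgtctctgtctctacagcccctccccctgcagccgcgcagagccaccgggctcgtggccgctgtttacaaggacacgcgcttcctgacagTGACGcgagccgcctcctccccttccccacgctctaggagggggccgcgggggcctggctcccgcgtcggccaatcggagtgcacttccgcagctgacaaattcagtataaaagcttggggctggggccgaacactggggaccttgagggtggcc
Nr4a2 (chr3:62104888-62105137, minus strand): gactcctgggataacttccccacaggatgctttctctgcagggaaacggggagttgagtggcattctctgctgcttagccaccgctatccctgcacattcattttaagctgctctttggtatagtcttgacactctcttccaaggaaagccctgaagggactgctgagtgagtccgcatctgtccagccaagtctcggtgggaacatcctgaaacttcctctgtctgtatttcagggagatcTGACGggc
Nr4a1 (chr7:134259888-134260137, plus strand): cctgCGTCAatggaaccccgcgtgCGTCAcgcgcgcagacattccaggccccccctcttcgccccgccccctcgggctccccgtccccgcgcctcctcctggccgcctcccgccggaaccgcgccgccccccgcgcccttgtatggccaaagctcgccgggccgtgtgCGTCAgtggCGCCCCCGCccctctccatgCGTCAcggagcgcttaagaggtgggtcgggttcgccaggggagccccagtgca
The Egr1 window held 2 CRE cores, 135 and 66 bases before the start, and 2 CArG boxes, 105 and 83 bases before it. Junb held 1 core 155 bases before its start, and Nr4a2 1 core 8 bases before. Nr4a1 held 4 cores, the nearest 53 bases before the start, and 1 EGR site 73 bases before it. Of 33469 rat promoters of this length 18.2% held a CRE core, against 14 of the 21 tested members of the list with an entry (66.7%). The full CRE (TGACGTCA, which contains the core) was in 1.59% of promoters and in 4 of the 21, Dusp1, Vgf, Plk2 and Crem. CArG boxes were in 1.5% of all promoters and in Egr1 and Dusp5, EGR sites in 2.45% and in Nr4a1 and Sik1, and the AP-1 site (TGACTCA or TGAGTCA) in 4.05% and in 0 of the 21. These are matches of letters and show no binding. The list was made of activity-regulated genes, and all promoters served as background without matching for base content. Members were not split by direction, so the shares say nothing about housing.

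Arc signal was 185, 188 and 201 in the isolated pools and 285, 440.3 and 343 in the enriched pools. The lowest enriched pool lay above the highest isolated one, and the mean went from 191 ± 8.59 to 356 ± 78.6 (SD, n = 3 pools). The log2 difference was 0.82 (SE 0.13, adjusted p = 0.234 by limma). In PBS rats Arc was 279.8, 241 and 226 without and 285, 351 and 319 with enrichment, so that KA_isolated held the 3 lowest of the 12 values.

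For Egr1 the isolated pools read 413, 378 and 403 and the enriched pools 572, 561 and 630.3, again with no overlap (log2 0.54, SE 0.092, adjusted p = 0.234 by limma). Its PBS pools stood at 475, 453 and 416 without and 540.0, 547 and 664 with enrichment, and all 6 enriched pools exceeded all 6 isolated ones. Egr4, a relative that is more restricted to brain, had 68.6, 49.8 and 58.6 against 87.4, 104 and 73.7 after KA (log2 0.47, SE 0.13, unadjusted p = 0.00383). The PBS pools showed Egr4 at 59.4, 63.2 and 46.2 against 94.5, 86.3 and 115, a log2 difference of 0.66, so this gene was higher with enrichment under both treatments (difference between them -0.19, SE 0.19).

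Junb, a partner of FOS in the AP-1 transcription factor, had signals of 97.3, 92.4 and 87.6 in isolated and 117, 131 and 146 in enriched rats (log2 0.43, SE 0.11). Fos itself was too dim for the test. The brighter of its probe sets read 30.1, 34.4 and 29.7 in KA_isolated and 73.6, 67.2 and 70.2 in KA_enriched, and the dimmer one 13.0, 24.7 and 12.3 and 32.7, 22.2 and 29.4, so that the brighter separated the groups and the dimmer did not. Jun, the other AP-1 partner, was close to level, with a log2 difference of -0.043 (unadjusted p = 0.526).

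The Nr4a orphan nuclear receptors, transcription factors that need no known hormone and act in memory storage, were higher together. Nr4a1 read 149, 162 and 144 in isolated and 193, 243 and 182 in enriched rats (log2 0.40, SE 0.11). Nr4a2 read 95.4, 102 and 106 against 153, 121 and 134 (log2 0.37, SE 0.10), and its second, dimmer probe set gave 0.53 (SE 0.11). Nr4a3 read 324, 324 and 277 against 361, 451 and 359.7 (log2 0.32, SE 0.093). For all 3 the enriched pools lay above the isolated ones. The second Nr4a2 probe set and the first parted after PBS, at -0.15 and 0.29.

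Dusp1, a phosphatase that switches off MAP kinases, read 92.0, 88.7 and 97.3 against 119.7, 161 and 109.5 (log2 0.41, SE 0.18, unadjusted p = 0.0401). Rgs2, which shortens signalling by G proteins, read 210.0, 224 and 234 against 238, 266 and 253, a smaller difference (log2 0.17, SE 0.077). Of the 26 members of the list that were bright enough, out of 42 named in it, 9 were higher at an unadjusted p under 0.05 against 3.65% of all genes, and 1 was lower against 2.9%. Its 10 members whose enriched pools all lay above the isolated ones compare with 6.04% of genes, and 3 lay below against 4.77%. Over the whole list 17 were higher and 9 lower, and its median was 0.10, against 0.0019 over all genes and 0.09 after PBS.

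Some activity-regulated genes pointed the other way or were level. Cebpd, a transcription factor of stress and inflammation, read 73.4, 69.98 and 76.0 in isolated and 43.2, 66.6 and 47.7 in enriched rats (log2 -0.39, SE 0.13), so enriched pools were lower by a factor of 1.31. Klf10, a growth factor response gene, was lower too (151, 168 and 159 against 141, 125 and 132). Per1, which belongs to both the clock and the activity program, had overlapping values (81.7, 65.0 and 66.0 against 85.9, 65.4 and 74.04). The Homer1 probe sets disagreed. The brightest gave a log2 of 0.10 and the others -0.16, 0.53 and -0.067, where 0.53 (SE 0.14) came from a probe set reading 168, 159 and 186 in isolated and 208, 272 and 289.5 in enriched rats. Which of the long and short Homer1 transcripts each probe set reads was not determined here. Bdnf, the growth factor most tied to activity and enrichment, read 115, 120.0 and 123 against 112, 137 and 129 and overlapped (log2 0.063, SE 0.088, unadjusted p = 0.485), while after PBS its log2 difference was 0.26. The difference between these did not pass the threshold (interaction -0.20, SE 0.12, adjusted p = 0.96 by limma).

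**Figure D2:**
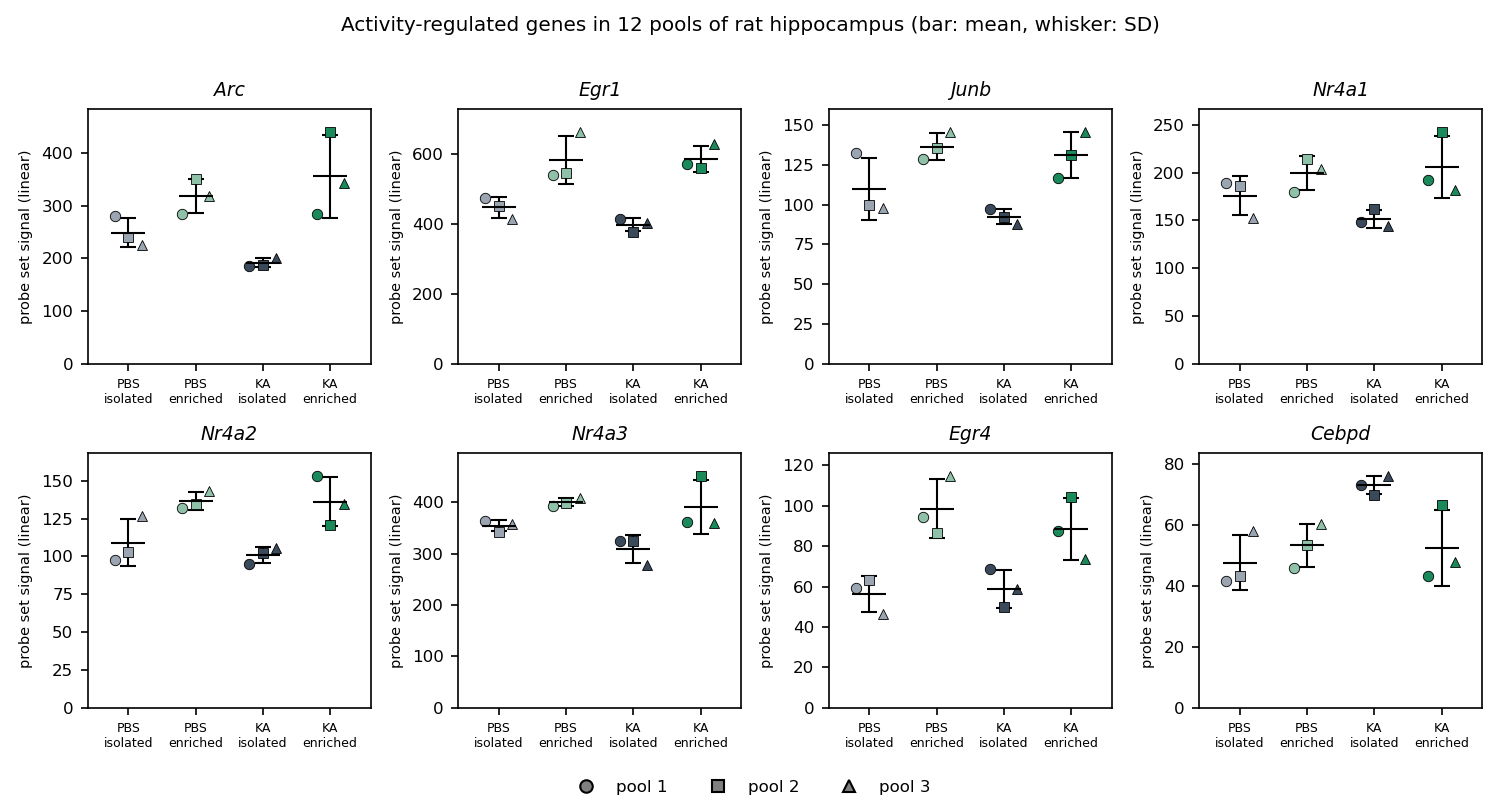
Linear probe set signal (vertical) in each of the 12 pools for 8 activity-regulated genes, by group (horizontal), with the mean and SD of 3 pools. Arc reads 185 to 201 in KA_isolated and 285 to 440 in KA_enriched, and Cebpd runs the other way, from 69.98 to 76.0 in KA_isolated down to 43.2 to 66.6 in KA_enriched.

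Microglial, macrophage and complement genes were mostly lower in enriched rats. Of 42 genes in that list 24 were tested, of which 21 were lower and 3 higher, with a median log2 difference of -0.23 against 0.0019 over all genes. At an unadjusted p under 0.05, 6 were lower (2.9% of all genes were) and 0 higher, and for 7 all enriched pools lay below all isolated ones (4.77% of all genes). Summed over the 24 genes, signal was 4403, 4740 and 4165 in KA_isolated and 3431, 3104 and 4434 in KA_enriched, so pool 3 of the enriched group was as high as the isolated pools and the other enriched pools were lower. PBS_isolated held 3294 to 3342 and PBS_enriched 3281, 4447 and 3368, again with 1 high pool. In bulk tissue, fewer microglia and less RNA per microglial cell cannot be told apart.

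Without KA_enriched pool 3 the median was -0.32, and 13 of the 24 were lower at an unadjusted p under 0.05, where 5.3% of all genes were lower (3.7% higher). No probe set passed the adjusted test in that setting either. With the pool, the groups overlapped for 17 of the 24.

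The genes with the smallest p were Laptm5, a lysosomal protein of leukocytes, and Msn, which ties actin to the cell membrane. Laptm5 read 131, 148 and 165 in isolated and 104, 97.4 and 127 in enriched rats (log2 -0.38, SE 0.11, unadjusted p = 0.00306), and Msn read 115, 135 and 107 against 89.96, 78.3 and 102 (log2 -0.35, SE 0.12). Both separated the groups. Among receptors, P2ry12, the purine sensor of resting microglia, was 167, 174 and 171 against 126, 109 and 147 (log2 -0.39, SE 0.14), and -0.60 (SE 0.23) with its other probe set. Csf1r, which microglia need to survive, was 301, 353 and 284 against 247, 198 and 285, with pool 3 inside the isolated range. Cx3cr1, the receptor for the neuronal signal fractalkine, was 56.0, 70.1 and 77.2 against 73.9, 55.9 and 51.2, a difference smaller than the spread.

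Complement was lower in the first 2 enriched pools. C1qa and C1qb, subunits of the C1q complex that tags synapses and debris, read 317, 319 and 224 against 180.3, 139.5 and 248 (log2 -0.58, SE 0.21) and 164, 198 and 138 against 111, 89.3 and 169 (log2 -0.42, SE 0.19). C3, the central complement protein, read 100.1, 110.2 and 69.95 in isolated and 24.6, 26.4 and 106 in enriched rats, a log2 of -0.85 (SE 0.41, unadjusted p = 0.061) and -1.36 without pool 3. Enriched pool 3 lay inside the isolated range for all 3 genes, and the other enriched pools lay below it.

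Ctsh, a lysosomal protease, was 269, 315 and 266 in isolated and 236, 198 and 239.6 in enriched rats (log2 -0.31, SE 0.12), with no overlap, while Ctss, an enzyme of antigen processing, was 1005, 1055 and 937 against 712, 642 and 1081 and overlapped, with enriched pool 3 highest of all 6. The transcription factor gene Maf was 78.0, 87.7 and 88.7 against 65.7, 76.0 and 76.9 after KA (log2 -0.18, SE 0.078) but 59.2, 61.4 and 65.5 against 74.7, 79.6 and 72.9 after PBS (0.23). Aif1, whose product IBA1 is the usual stain for microglia, did not give 1 answer: the brighter probe set read 72.5, 54.9 and 71.4 against 77.5, 69.1 and 82.8 (log2 0.17, SE 0.14), and the dimmer one 73.3, 67.7 and 65.1 and 42.1, 34.9 and 48.1 (log2 -0.55, SE 0.20). In PBS_enriched the dimmer one read 33.8, 79.3 and 32.5, again with pool 2 high.

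Cd74 had the largest difference on the lower side among all 6923 genes. This invariant chain guides MHC class II molecules to the lysosome. Its signal was 125, 187 and 102 in KA_isolated and 43.9, 33.6 and 124 in KA_enriched. Pools 1 and 2 of the enriched group were below all isolated pools and pool 3 was among them, and the log2 difference of -0.998 had an SE of 0.39 (adjusted p = 0.659 by limma). RT1-Da, a class II chain, read 66.8, 96.4 and 70.2 against 30.4, 28.2 and 84.2 (log2 -0.64, SE 0.30). B2m, the light chain of class I molecules, had log2 differences of -0.09 (SE 0.093) and -0.17 (SE 0.11) with its 2 probe sets. Over the list 11 of 29 genes were tested, 8 lower and 3 higher, with a median of -0.09 (-0.14 without KA_enriched pool 3), and 1, Cd74, was lower at an unadjusted p under 0.05 (2.9% of all genes were), or 3 without that pool (5.3% of all genes). The cytokine, chemokine and NF-kappaB list, with 14 of 45 tested, was split evenly, 7 higher and 7 lower, with a median of 0.0065 and 0 at that level in either direction.

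**Figure D3:**
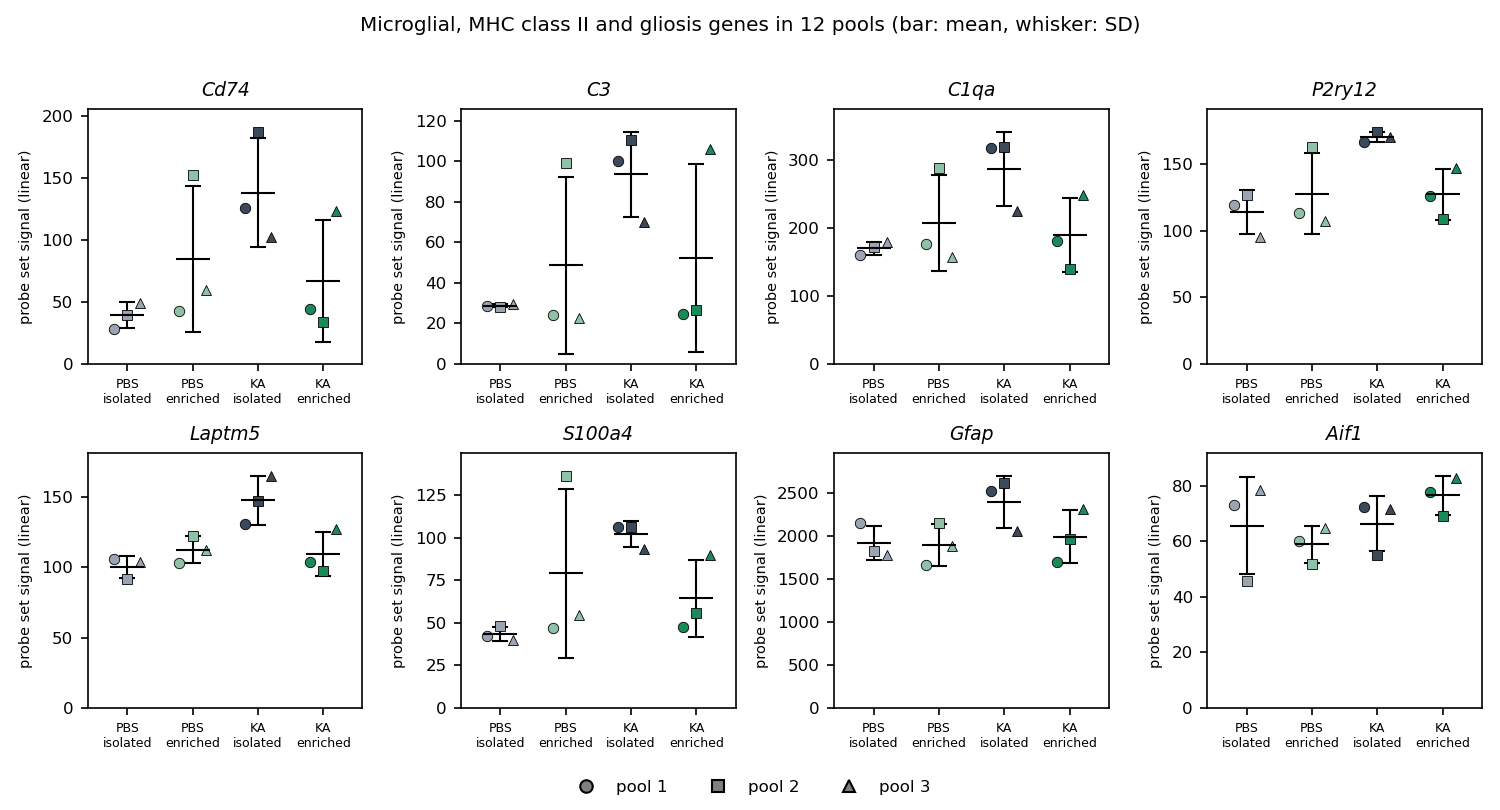
Linear probe set signal (vertical) in each of the 12 pools for 8 glial and immune genes, by group (horizontal), with the mean and SD of 3 pools and a symbol per pool number. Pool 3 of KA_enriched (triangle) and pool 2 of PBS_enriched (square) sit high for Cd74 (124 and 152), C3 (106 and 99.1) and S100a4 (90.1 and 136). The brighter Aif1 probe set, plotted here, shows no such order, with PBS_enriched pool 2 lowest in its group (51.7). In the dimmer Aif1 probe set, not plotted, that pool is high (79.3, against 33.8 and 32.5 in PBS_enriched pools 1 and 3).

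Genes of reactive gliosis shared this pattern. Of 14 tested (27 in the list) 12 were lower, with a median of -0.17 (-0.30 without KA_enriched pool 3), and 1 was lower at an unadjusted p under 0.05 (2.9% of all genes). Without that pool 5 were, against 5.3% of all genes. The 1 was S100a4, a calcium-binding protein of reactive glia and leukocytes, at 106, 107 and 93.1 in isolated and 47.4, 55.6 and 90.1 in enriched rats (log2 -0.58, SE 0.26). Gfap, the astrocyte filament gene, was 2518, 2611 and 2051 against 1699, 1963 and 2311 (log2 -0.27, SE 0.13, unadjusted p = 0.0659), with pool 3 inside the isolated range. The protease inhibitor A2m read 109.7, 104 and 99.9 against 73.9, 77.1 and 109. The small heat shock gene Hspb1 read 64.1, 60.7 and 67.8 against 40.3, 54.7 and 62.6. In both, enriched pools 1 and 2 held the lowest values and pool 3 lay inside the isolated range. The hyaluronan receptor Cd44 (46.0, 71.3 and 62.8 against 48.7, 41.0 and 47.9) and the tetraspanin Cd9 (659, 677 and 579.6 against 502, 586 and 605) overlapped between the groups without that order. Summed over the 14 genes, signal was 5445, 5391 and 5083 in KA_isolated and 4113, 4358 and 5298 in KA_enriched. Microglial, MHC and gliosis sums were all highest, within the enriched group, in the pool that also stood apart by its actin ratio. With that ratio as a covariate the medians were -0.28 for the microglial, -0.13 for the MHC and -0.21 for the gliosis list. The ratio was 0.86 in that pool and 0.36 to 0.64 in all other arrays, so the covariate largely marks that pool. Wholeness of RNA and other traits of the pool cannot be told apart by this fit.

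Astrocyte genes outside gliosis did not share a direction: 11 of 21 were higher, with a median of 0.0043. Agt, the angiotensin precursor made by astrocytes, was higher with enrichment, at 233, 254 and 245 against 341, 324 and 459 (log2 0.57, SE 0.17, unadjusted p = 0.00476), and the groups did not overlap. Fabp7, a fatty acid carrier of radial glia and young astrocytes, was lower, at 787, 886 and 708 against 595, 546 and 784 (log2 -0.31, SE 0.14). Gja1, the gap junction gene of astrocytes, was lower by both its probe sets, at -0.13 (SE 0.073) for the brighter and -0.53 (SE 0.16) for the dimmer. Of 19 myelin genes 10 were higher, with a median of 0.012 and 0 lower or higher at an unadjusted p under 0.05. Without KA_enriched pool 3, 13 were higher, with a median of 0.08 and 2 higher at that level (3.7% of all genes). Mbp was 4849, 5345 and 4459.6 against 4941, 5400.2 and 5189.

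Several receptor genes of neurons were higher in enriched rats after KA. Sstr4, a somatostatin receptor that dampens hippocampal excitation, read 56.2, 53.3 and 52.5 in KA_isolated and 63.7, 74.3 and 67.4 in KA_enriched (log2 0.27, SE 0.085). After PBS the order was turned, with 65.6, 65.5 and 80.6 without and 53.2, 51.0 and 58.9 with enrichment (-0.29). Sstr2 was 84.6, 56.9 and 88.1 against 101, 112 and 140.0 (log2 0.53, SE 0.15), and its other probe set gave 0.22 (SE 0.14). Hrh3, a histamine receptor that limits transmitter release, read 156, 146 and 149.99 against 178, 169 and 188 after KA (log2 0.22, SE 0.076) and 199.9, 194 and 195 against 153, 143 and 171 after PBS (-0.31). Its dimmer probe set gave 0.067 (SE 0.15) after KA and -0.077 (SE 0.15) after PBS. The serotonin receptor gene Htr5b read 117, 116 and 108 against 156, 151 and 118 (log2 0.28, SE 0.10).

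As lists, the neuropeptides and their receptors had 4 of 28 tested genes higher and 1 lower at an unadjusted p under 0.05, beside 3.65% and 2.9% of all genes, with a median of 0.0019. The higher ones were Sstr2, Sstr4, Npy5r and Gal. The lower one was Cck, the peptide cholecystokinin, at 1424, 1228 and 1342 against 1136, 1080.1 and 1203 (log2 -0.22, SE 0.078). Gal, galanin, which dampens seizures, read 75.4, 67.3 and 65.9 against 80.9, 95.8 and 73.6, with enriched pool 3 inside the isolated range (log2 0.21, SE 0.10). Npy, neuropeptide Y, read 398, 392 and 452 against 426, 442 and 509 and overlapped (log2 0.14, SE 0.087, unadjusted p = 0.126). The monoamine, histamine and acetylcholine receptors had 11 of 17 higher and 2, Hrh3 and Htr5b, higher at that level (3.65% of all genes), with a median of 0.06 against -0.05 after PBS.

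Among growth factor genes Ntrk2, the receptor TrkB for BDNF, read 269.8, 239.6 and 245 in isolated and 289, 296 and 347 in enriched rats (log2 0.28, SE 0.088, unadjusted p = 0.0069). A second Ntrk2 probe set gave 0.10 (SE 0.094), so the difference was seen with 1 of the 2. Igf1r, the receptor for insulin-like growth factor, read 91.8, 76.1 and 89.4 against 110.1, 101 and 126 (log2 0.33, SE 0.12), and Pdgfa, a growth factor for oligodendrocyte precursors, 102, 97.8 and 108 against 116, 122 and 145 (log2 0.27, SE 0.11). All 3 separated the groups, as 6.04% of all genes did in this direction, and a choice by smallest p favours this. They are the 3 of 23 tested genes of the list at an unadjusted p under 0.05, beside 3.65% of all genes, with 0 lower. Without KA_enriched pool 3 the list had 1 of 23 higher at that level, beside 3.7% of all genes.

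Of 12 tested AMPA and kainate receptor genes 6 were higher and 6 lower, with a median of -0.0039. At an unadjusted p under 0.05, 1 member was higher, beside 3.65% of all genes. It was Grik4, a high-affinity kainate receptor subunit of CA3 neurons, at 87.1, 70.5 and 75.0 in isolated and 106, 107 and 96.3 in enriched rats (log2 0.35, SE 0.10, unadjusted p = 0.00476). Gria1, an AMPA receptor subunit, differed by nearly as much in the other direction but with a wider spread (357, 520.1 and 481 against 390.3, 424 and 278, log2 -0.31, SE 0.22). NMDA and metabotropic receptors had 4 of 10 higher and a median of -0.08, and GABA receptors 7 of 11 higher and a median of 0.05, with 0 in either list at an unadjusted p under 0.05.

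Of 28 sodium, calcium, HCN and chloride channel and transport genes 19 were higher, with a median of 0.07, and of 26 potassium channel genes 20 were higher, with a median of 0.04. Scn3b, a sodium channel beta subunit, read 806, 742 and 753 in isolated and 909, 992 and 1244 in enriched rats (log2 0.43, SE 0.13, unadjusted p = 0.00533), and pool 3 had the highest value. Atp2b3, a pump that clears calcium from neurons, read 403, 400.5 and 396 against 429, 505 and 521 (log2 0.26, SE 0.08), with 0.26 (SE 0.11) from its other probe set. Hcn2, a pacemaker channel, read 197, 215 and 163 against 251, 221 and 236. Among potassium channels Kcnd3, of the A-type current, read 126, 127 and 98.0 against 149.6, 125 and 177, and Kcnh3 227, 265 and 248 against 266, 288 and 334. These 5 are the members at an unadjusted p under 0.05, 3 of 28 and 2 of 26, beside 3.65% of all genes, and none was lower at that level.

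**Figure D4:**
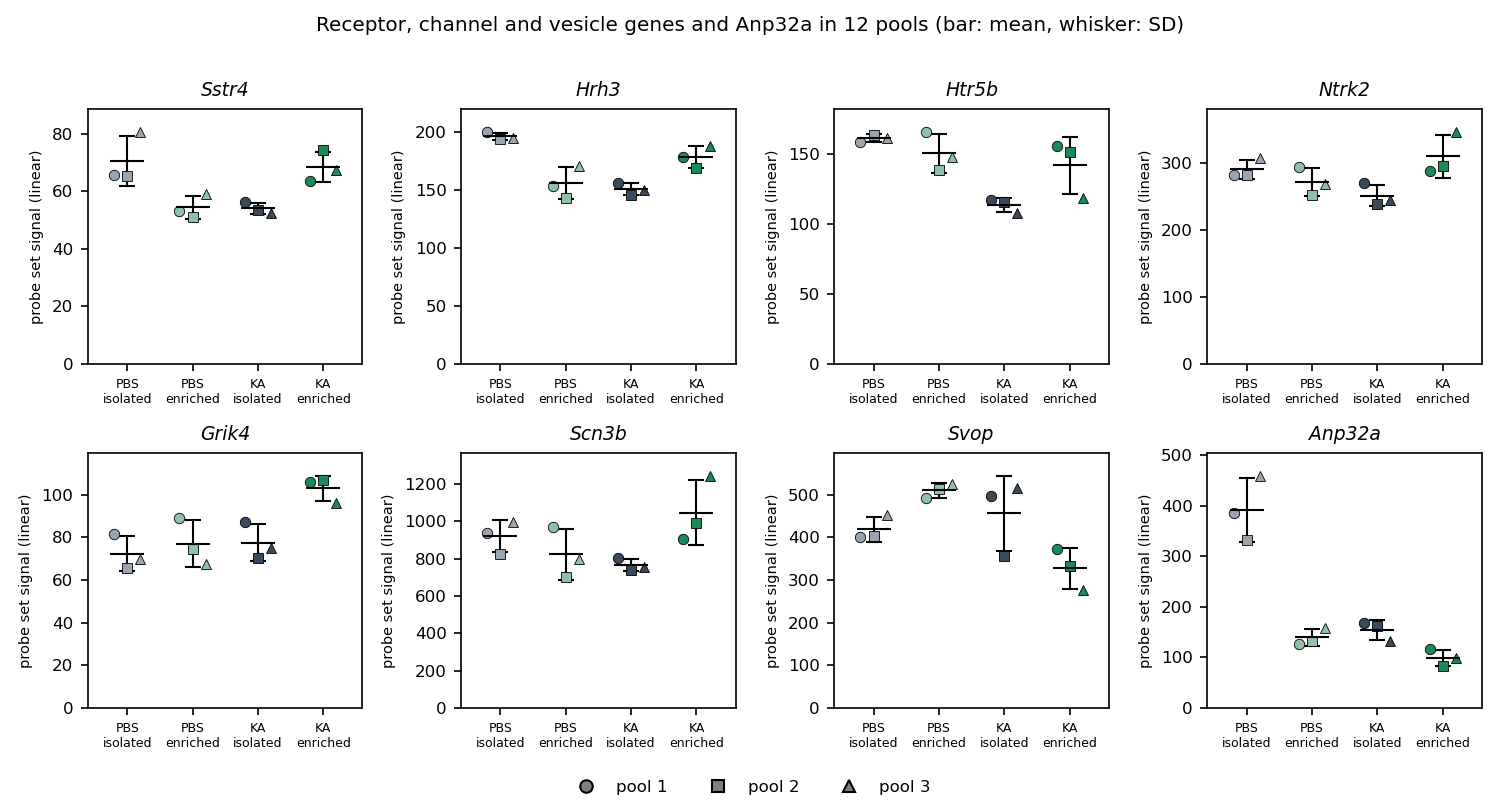
Linear probe set signal (vertical) in each of the 12 pools for 6 receptor and channel genes, the vesicle gene Svop and Anp32a, by group (horizontal), with the mean and SD of 3 pools. Sstr4 and the plotted, brighter probe set of Hrh3 are higher with enrichment after KA and lower after PBS, and Anp32a is highest in PBS_isolated, at 331 to 459.

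Synaptic genes had no common direction. Of 27 vesicle and release genes 14 were higher and 13 lower. Svop, a transporter-like protein of synaptic vesicles, read 498, 356 and 516 in isolated and 373, 332 and 277 in enriched rats (log2 -0.45, SE 0.13). Sv2a, the vesicle protein bound by the antiseizure drug levetiracetam, read 286, 313 and 303 against 320.1, 374 and 436 (log2 0.30, SE 0.11), and Rab3b, a vesicle GTPase, 223, 254 and 260.2 against 178, 192 and 241. Postsynaptic genes were split 18 to 17, and of these Nrxn3, a presynaptic adhesion gene kept in that list, had 178, 173 and 279.6 against 286, 272 and 292, where isolated pool 3 lay inside the enriched range.

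Markers of principal neurons did not move together either, with 9 of 19 higher. Wfs1, a CA1 marker, was 748, 700.3 and 777 in isolated and 867, 814 and 885 in enriched rats (log2 0.20, SE 0.087), while Ociad2 was 265, 299.9 and 282 against 216, 223 and 259 (log2 -0.26, SE 0.091). Interneuron markers had 12 of 18 higher and a median of 0.05; among them Cck, given above, was the one at an unadjusted p under 0.05. Of 17 neurogenesis genes 8 were higher and 0 reached that level in either direction. Chga, of dense-core granules, read 281, 251 and 294 against 224, 233 and 291 (log2 -0.14, SE 0.10).

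Genes of cell death and survival included some of the lowest p-values. Anp32a, a nuclear protein that inhibits phosphatase 2A and promotes apoptosome formation, read 167, 162 and 132 in isolated and 116, 83.7 and 98.4 in enriched rats (log2 -0.56, SE 0.13, adjusted p = 0.537 by limma). After PBS its difference was larger, from 385, 331 and 459 to 127, 132 and 159 (-1.38, adjusted p = 0.00115 by limma), the 1 probe set that passed there. Bcl2l1, which protects mitochondria from BAX, read 136, 135 and 147 against 113, 113 and 117 (log2 -0.25, SE 0.067). Xrcc4, of DNA end joining, read 52.0, 52.8 and 51.1 against 61.0, 67.2 and 65.4 (log2 0.24, SE 0.066), with a like difference after PBS (0.25). Apaf1, the scaffold of the apoptosome, read 45.4, 43.7 and 53.3 against 50.1, 66.2 and 63.3, and Bnip3l, of mitophagy, 567, 606 and 582 against 659.7, 636 and 677, with 0.011 (SE 0.079) from its other probe set. Of the 24 tested genes 3 were higher and 2 lower at an unadjusted p under 0.05, beside 3.65% and 2.9% of all genes, with a median of -0.02. Without KA_enriched pool 3 the median turned to 0.04, with 16 higher and 8 lower, so the list has no settled direction.

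Stress genes were near level. Of 27 antioxidant genes Sod2, the mitochondrial superoxide dismutase, was lower, at 461, 367 and 487 against 385, 317 and 309.8 (log2 -0.36, SE 0.11), and Gstm1, a glutathione transferase, higher, at 449, 369 and 409 against 429, 543 and 549 (log2 0.29, SE 0.11). Of 28 heat shock and chaperone genes 1 was lower at an unadjusted p under 0.05, beside 2.9% of all genes. It was the endoplasmic reticulum enzyme Pdia3 (854, 733 and 841 against 749, 635 and 679), while its other probe set gave 0.091 (SE 0.10). Glucocorticoid signalling had 12 of 16 higher and a median of 0.06, and the clock list 9 of 15 higher and a median of 0.05. One gene of each was higher at that level, beside 3.65% of all genes. They were Dusp1, which the activity list also holds, and Clock, whose 2 probe sets had opposite signs (0.27 and -0.074).

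For cytosolic ribosomal proteins 31 of 38 were lower, with a median of -0.05, for oxidative phosphorylation 43 of 60, with a median of -0.04, and for the proteasome 23 of 32, with a median of -0.04. Without KA_enriched pool 3 the ribosomal median was -0.11 and that of oxidative phosphorylation -0.07. The most different members were Rpl13a (1502, 1144 and 1298 against 1068, 942 and 1213), Rps15a (1999, 1974 and 1979 against 1820.1, 1744 and 1731) and the complex I subunits Ndufs8 (385, 397 and 422 against 369, 276 and 367) and Ndufb7 (382, 359 and 385 against 336, 288 and 355). At an unadjusted p under 0.05 there were 2, 2 and 1 lower members in the 3 lists, near the 2.9% of all genes. Without KA_enriched pool 3 there were 8, 8 and 5, beside 5.3% of all genes, so these counts depend on that pool.

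The 15 higher genes of smallest p were, after Arc and Egr1, Rhobtb2, Snhg11, Rbm14, Synj1, Tp53inp2, Pank4, Depp1, Cpsf4, Cnot4, Junb, Begain, Snrnp40 and Smarcd2. A choice by smallest p favours genes whose groups are apart. In each of these genes all 3 enriched pools lay above all 3 isolated ones, against 6.04% of all genes. Begain, which binds the postsynaptic scaffold PSD-95, had the largest difference among them after Arc, at 83.2, 84.8 and 52.9 in isolated and 177, 104 and 118 in enriched rats (log2 0.72, SE 0.18). Rhobtb2, an adaptor of a cullin ubiquitin ligase, read 46.8, 46.6 and 38.3 against 68.1, 62.0 and 70.4 (log2 0.46, SE 0.092). Synj1, the lipid phosphatase that uncoats endocytosed synaptic vesicles, read 689.8, 703 and 621 against 802, 869 and 857 (log2 0.32, SE 0.075). The long noncoding RNA Snhg11, abundant in neurons, read 679.8, 669.9 and 719 against 837, 989.6 and 897 (log2 0.39, SE 0.081). The coactivator Rbm14 read 54.5, 49.1 and 63.3 against 74.8, 80.9 and 80.4. The polyadenylation factor Cpsf4 read 82.3, 81.4 and 66.5 against 105, 104 and 132. The ubiquitin ligase Cnot4, of the CCR4-NOT complex, read 68.9, 89.5 and 69.7 against 104, 107 and 97.6. Of the remaining ones, the spliceosome protein Snrnp40 and the SWI/SNF subunit Smarcd2 had the widest gaps. Snrnp40 read 76.2, 87.5 and 83.0 against 127, 116 and 136, and Smarcd2 read 50.8, 52.0 and 65.1 against 97.7, 85.0 and 85.9. The autophagy genes Tp53inp2 and Depp1 differed by 0.32 (SE 0.075) and 0.46 (SE 0.11), and Pank4 by 0.34 (SE 0.081).

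The 15 lower genes of smallest p were Anp32a, Fxyd1, Gpr108, Leprot, Bcl2l1, F3, Laptm5, Pde6g, Cd24, Lmna, Svop, Cyb561, Hnrnpab, Pcdhb9 and Tpgs1. In all but Svop the 3 enriched pools lay below the 3 isolated ones, against 4.77% of all genes, which the choice by smallest p favours here too. Fxyd1, which regulates the sodium pump, read 239, 236 and 229.6 in isolated and 196, 173 and 184 in enriched rats (log2 -0.32, SE 0.085). F3, tissue factor, which starts coagulation and is made by astrocytes in brain, read 83.3, 85.2 and 73.3 against 44.6, 71.8 and 55.6 after KA (log2 -0.41, SE 0.11) and 64.8, 70.03 and 71.5 against 84.8, 85.5 and 92.7 after PBS (0.29). Cd24, a surface glycoprotein of young neurons and leukocytes, read 455, 461 and 427 against 359, 400.0 and 343, and Lmna, the nuclear lamina gene, 134, 136 and 142 against 112, 95.8 and 118. Leprot, which limits surface leptin receptors, read 184, 167 and 179 against 157, 126 and 138 with 1 probe set, while the other was level (0.05, SE 0.12). The remaining differences were -0.45 for Gpr108, -0.33 for Pde6g, -0.24 for Cyb561, -0.29 for Hnrnpab, -0.28 for Pcdhb9 and -0.39 for Tpgs1.

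Size and p did not rank genes alike. Mapkapk2, a kinase downstream of p38, had a log2 difference of 0.92 but an SE of 0.39: its isolated pools read 114, 113 and 129 and its enriched pools 114, 326 and 354, and 1 pool of each PBS group also stood above the rest of its group (104, 242 and 106 against 224, 116 and 95.01). Pde1b, a calmodulin-dependent phosphodiesterase, and Zmpste24, the protease that matures lamin A, had log2 differences of -0.75 (SE 0.34) and -0.73 (SE 0.22). The second probe set of Camk2a, the synaptic kinase, had a smaller p than any other named gene but Arc and Egr1 (log2 0.50, SE 0.092, adjusted p = 0.267 by limma), with 99.2, 95.2 and 104 in isolated and 132, 151 and 162 in enriched rats, but the brightest probe set of the gene read 919, 889 and 754 against 837, 809 and 1378 and overlapped, and another gave -0.13. These 4 genes were picked after their values were seen.

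Whether housing made a different difference after KA than after PBS was tested by the interaction, the difference after KA minus that after PBS. limma called 0 of 9520 probe sets (0%), and the smallest adjusted p was 0.194. At an unadjusted p under 0.05 there were 473, and 718 without KA_enriched pool 3. Per gene 187 were positive (2.7%) and 147 negative (2.12%) at that level. The genes of smallest p included Cpsf4 (0.80, SE 0.16), Hrh3 (0.53, SE 0.11), Sstr4 (0.56, SE 0.12) and Anp32a (0.82, SE 0.19) on the positive side, and F3 (-0.69, SE 0.16), Leprot (-0.48, SE 0.12), Svop (-0.73, SE 0.19) and Maf (-0.41, SE 0.11) on the negative side. The other probe set of Hrh3 gave 0.14 (SE 0.21), and that of Leprot -0.13 (SE 0.17). Anp32a was lower with enrichment under both treatments, by less after KA. Of the 24 microglial genes 11 were negative at an unadjusted p under 0.05 (2.12% of all genes) and 0 positive, with a median interaction of -0.43. Their median housing difference was -0.23 after KA and 0.12 after PBS. The PBS side rests on PBS_enriched pool 2, where their summed signal was 4447. It was 3281 and 3368 in PBS_enriched pools 1 and 3, and 3294 to 3342 in PBS_isolated. Without PBS_enriched pool 2 the count over all probe sets was 373, and the list was not counted anew. The microglial genes follow the same single pools, so the 11 are not separate results. Of the 26 activity-regulated genes 2 were positive and 1 negative, with a median of 0.08.

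Markers of other tissue and of blood were checked beside these results. Choroid plexus and meninges, which can cling to a dissected hippocampus, had 6 of 14 genes higher and a median of -0.04, or 3 of 14 and -0.12 without KA_enriched pool 3. Ttr, the abundant choroid plexus product, varied between single pools, at 104, 377 and 151 in isolated and 131, 683 and 125 in enriched rats. Summed signal of these 14 genes ran from 3184 to 3955 in KA_isolated and from 3166 to 3766 in KA_enriched. The 3 blood genes tested were all higher, and of these Slc4a1, of red cells, read 31.1, 52.7 and 38.1 against 45.1, 78.4 and 60.3 while the beta-globin gene Hbb read 2871, 3048 and 3172 against 3386, 2848 and 3562. Marker genes of thalamus, striatum and cortex had 7 of 10 higher and a median of 0.06, which was 0.0011 without KA_enriched pool 3. Endothelial and mural genes had 9 of 17 higher, and the amino acid transporter Slc7a5, of the blood-brain barrier, was lower (205, 186 and 167 against 155, 114 and 161). In the cholesterol synthesis list, 9 of 20 were higher, and Mvd read 93.8, 73.6 and 77.0 against 47.8, 56.1 and 73.7.

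**Figure D5:**
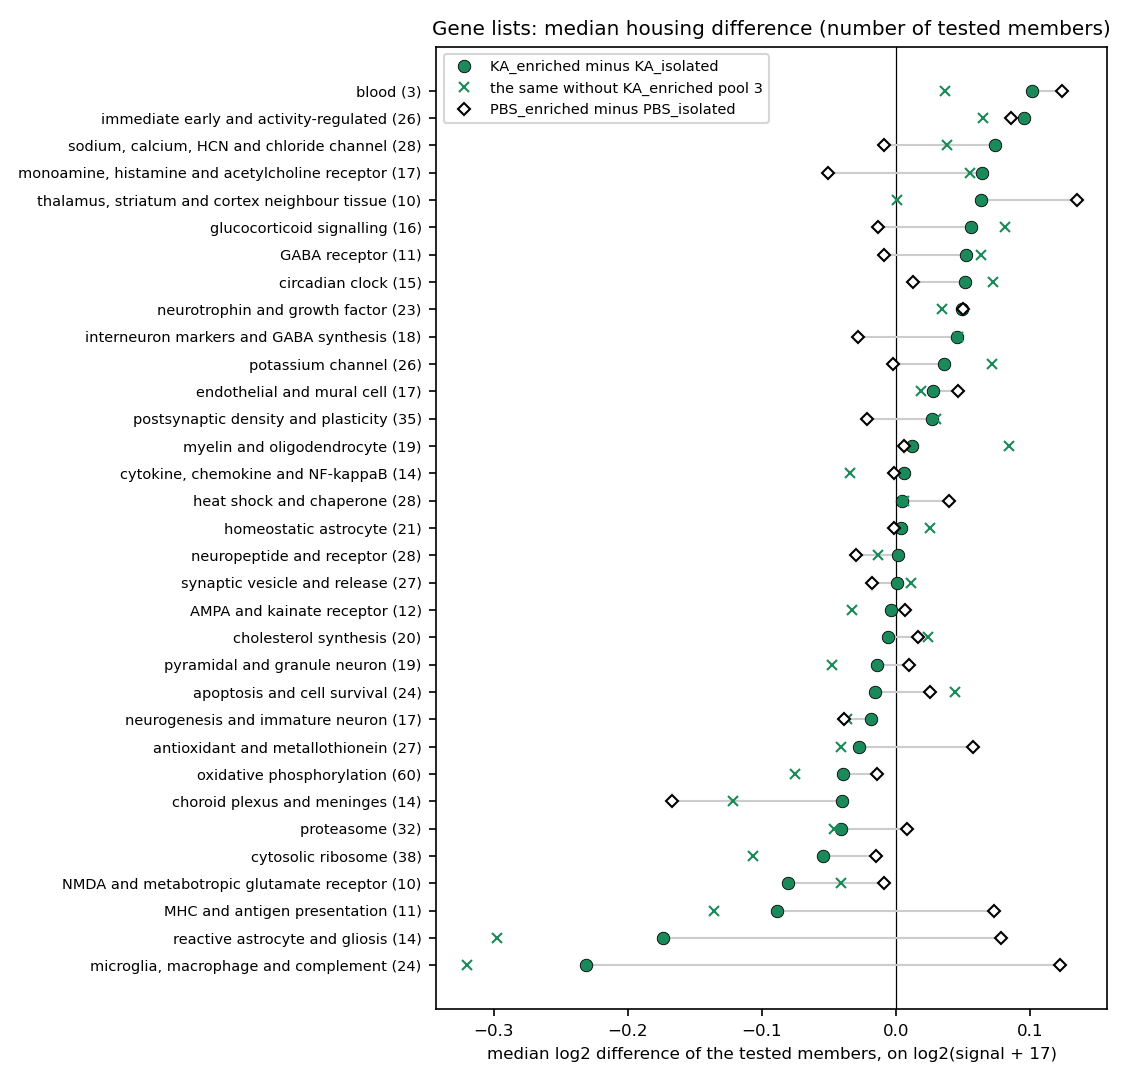
Median log2 difference between enriched and isolated rats (horizontal) for the tested members of 33 gene lists, with their number in brackets, after KA (circles), after KA without KA_enriched pool 3 (crosses) and after PBS (diamonds). The microglial list is lowest after KA, at -0.23, and at 0.12 after PBS, and the activity-regulated list is at 0.10 and 0.09.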

How the data were processed

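RNA of 12 pooled hippocampal samples was hybridised to 1-colour Affymetrix rat arrays. The authors deposited 1 table of linear intensity for 15923 probe sets. How scans became probe set values was not given in the sources used here; all arrays share a trimmed mean (2% cut at each end) of 150.03, as after scaling. Control probe sets (57) were left out, 17 was added and log2 taken, and the brightest 60% by mean over the 12 arrays (9520 probe sets) were kept. One model with a mean for each of the 4 groups was fitted to all arrays with limma 3.58.1 in R 4.3.3, with Benjamini-Hochberg adjustment over the 9520 and a threshold of 0.05. The fit was first tested on simulated data. Gene symbols came from the platform annotation: 12789 probe sets have 1 symbol, 312 several and 2822 were not listed. Genes were represented by their probe set with the highest mean.

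The text names up to 15 genes per direction and up to 5 per list by smallest unadjusted p, up to 6 interaction genes per sign, and a set list of genes of interest. Egr4, Nr4a3, Cebpd, Rgs2, Klf10, Per1, Jun, C1qb, Ctss, Cx3cr1, Mapkapk2, Pde1b, Zmpste24 and Camk2a were also named where the rule does not reach, after their values were seen. The members and the 33 gene lists were chosen with earlier results of these data known. Samples were not treated as paired by replicate number in the main fit. As deviations from their group means, same-numbered KA_enriched and KA_isolated pools correlated at -0.008, 0.072 and 0.037. Alternatives tried were other pseudocounts, no filter, other scalings, array weights, an actin ratio covariate, the KA arrays alone, a replicate block and each pool left out.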

Additional observations from a re-analysis of the deposited data

How the results depend on the processing

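After KA, limma called 0 to 1 probe sets over the alternatives. Leaving out 1 pool at a time gave 0 to 1: without PBS_enriched pool 3 it was an unnamed probe set (log2 0.61, adjusted p = 0.0141) and without KA_enriched pool 1 it was Arc (0.96, adjusted p = 0.0479). The interaction had 0 calls throughout. Probe sets at an unadjusted p under 0.05 numbered 668, with 1081 when dim probe sets were kept, which tests more of them, and for the interaction 473, with 861 when they were kept. Without single pools these counts ran from 522 to 924 after KA and from 373 to 718 for the interaction, with 718 without KA_enriched pool 3. With the replicate block, which takes pools of 1 number as a pair, there were 0 calls and 740 probe sets at that level; for 1 of the 3 numbers the same-numbered pool was the best partner. Scaling to 1 median moved the median of all genes by -0.022 and quantile normalization by -0.0039.

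Of 110 genes named in the text, 107 kept their sign under all 21 alternatives. The exceptions were Ttr (-0.47 to 0.78 without single pools, and up to 1.18 over all alternatives), Per1 (-0.016 to 0.15) and the brightest probe set of Camk2a (-0.0035 with the actin ratio as a covariate, and -0.048 to 0.33 without single pools). The cause was not tested. Many of these genes were named for a small p in the same comparison, which favours a kept sign. Leaving out a PBS pool, fitting the KA arrays alone, keeping dim probe sets and the replicate block cannot alter a gene's log2 difference after KA. Those alternatives could therefore not turn a sign. The microglial median stayed between -0.32 and -0.18, that of gliosis between -0.30 and -0.12 and that of the activity-regulated list between 0.07 and 0.13. With 3 pools a group and a median SE of 0.10, small differences are not detectable, and dim genes such as Fos were not tested.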
